A study of Mus musculus with 38 samples.

Results

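Interferon-stimulated genes are the genes that cells switch on after exposure to interferons, and 33 of them, chosen by symbol from a fixed list that covers transcription factors, viral nucleic acid sensors and antiviral effectors, were followed among the 21441 genes of each tissue's expression table. All 33 were present under their own symbols in the tables for small intestinal villi, small intestinal crypts and colon. The RNA came from wild-type C57BL6/J mice, males and females by label, that were vitamin D deficient in every group, controls included. The animals, 12 to 14 weeks old at treatment by the protocol and 10 to 13.3 weeks by the age label, received intraperitoneally either 1,25(OH)2D3, the active hormone of the vitamin D system, at 10 ng per gram, or 0.1 ml of the vehicle, a mix of propylene glycol with ethanol, and tissue was taken after 4 h. Villi and crypts were freed with EDTA from the proximal small intestine and parted by a filter, and colon epithelium was scraped from the muscle. The vehicle groups held 6 libraries in every tissue, and the 1,25(OH)2D3 groups held 7 for villi, 6 for crypts and 7 for colon. No vitamin D sufficient group was analysed here, and nothing in the labels says how many mice stand behind a library, so p-values reflect the variation among these libraries, which may be technical.

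Type I and type III interferons bind their receptors at the cell surface and, through JAK kinases, assemble a complex that holds STAT2 and IRF9 and binds interferon-stimulated response elements, whereas interferon gamma has a receptor of its own and acts mainly at gamma-activated sites. The gut epithelium carries a resting level of this programme, which is known to be kept up by microbial signals, and type III interferon is a main interferon of intestinal epithelial cells. 1,25(OH)2D3 acts through the vitamin D receptor, a nuclear receptor that is abundant in this epithelium.

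The promoters were searched for the sites through which interferons act. RefSeq promoters on GRCm38.p6 were matched by symbol for 24 of the 33 members, and the 250 bases before each start were searched on both strands for the core of the interferon-stimulated response element, GAAA and GAAA separated by NN. A match was present for 11 of the 24 members (45.8%), against 936 of 27025 genes in the promoter table (3.46%). The 11 were Stat2, Oas1a, Oas3, Ifit1, Ifit3, Isg15, Gbp2, Gbp3, Rsad2, Bst2 and Cxcl10. The matches lay on the gene's own strand in 5 of these members and on the opposite strand in the other 6, and 4 members had matches that overlapped each other. TTCNNNGAA, the core of the gamma-activated site, was present for 4 of the 24 members (16.7%), namely Eif2ak2, Oas1a, Ifit2 and Bst2, against 8.13% of all genes, and overlapped a match of the first motif in 1 place, in Bst2. These letters describe the windows and do not show binding. Of the members with more than 1 match, 4 are printed, those with the most matches and then the highest level, to show how the matches lie. All 4 are among the members that were high in the same colon libraries, as described further on, but so are Irf7 and Oasl2, which had no match in this window. They run 5′ to 3′ on the strand of the gene and end at the base before the start, with matches of the first motif in capitals, which read TTTC, NN, TTTC where the match is on the opposite strand. Isg15 encodes the ubiquitin-like modifier ISG15 (chr4:156200819-156201068, minus strand), Oas1a an oligoadenylate synthetase that activates RNase L (chr5:120907526-120907775, minus strand), Ifit1 a protein that binds foreign RNA ends (chr19:34640639-34640888, plus strand) and Bst2 tetherin, which holds budding virus at the membrane (chr8:71537473-71537722, minus strand).
Isg15: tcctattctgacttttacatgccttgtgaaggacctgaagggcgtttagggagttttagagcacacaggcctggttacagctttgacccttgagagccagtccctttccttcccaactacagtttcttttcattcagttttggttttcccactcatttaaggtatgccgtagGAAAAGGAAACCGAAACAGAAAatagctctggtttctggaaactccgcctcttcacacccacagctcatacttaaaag
Oas1a: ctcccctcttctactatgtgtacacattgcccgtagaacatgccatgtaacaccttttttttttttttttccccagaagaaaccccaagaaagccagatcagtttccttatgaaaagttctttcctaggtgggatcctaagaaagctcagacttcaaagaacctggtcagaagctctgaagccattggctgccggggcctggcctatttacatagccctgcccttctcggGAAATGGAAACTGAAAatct
Ifit1: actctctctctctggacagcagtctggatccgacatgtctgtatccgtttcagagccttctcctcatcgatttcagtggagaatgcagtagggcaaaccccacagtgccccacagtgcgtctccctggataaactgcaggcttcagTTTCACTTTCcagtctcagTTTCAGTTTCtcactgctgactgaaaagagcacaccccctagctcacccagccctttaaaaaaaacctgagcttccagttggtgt
Bst2: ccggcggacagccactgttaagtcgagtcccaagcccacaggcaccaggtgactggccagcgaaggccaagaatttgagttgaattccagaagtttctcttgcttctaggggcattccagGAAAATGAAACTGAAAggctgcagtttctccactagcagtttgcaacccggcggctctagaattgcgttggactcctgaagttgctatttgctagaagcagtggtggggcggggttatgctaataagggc

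Levels are FPKM, fragment counts scaled for transcript length and library size, as the authors deposited them, and library depth, recovered from the values and rounded, ran from 13810000 to 17470000 reads with a median of 15820000. Cyp24a1, the vitamin D degrading enzyme that the hormone is known to induce, was at 0.0548 to 64.7 FPKM in the vehicle libraries and at 403 to 4651 in the treated ones. Vehicle replicate 6 of villi (62.2) and of colon (64.7) stood above the other vehicle libraries, which reached 7.35. Summed markers of other cells also set libraries apart. In colon the crypt markers, carried by the Paneth cell gene Lyz1, summed to 524 FPKM in vehicle replicate 5 and to at most 36.4 in the other 12 libraries. Stromal markers such as the muscle genes Des and Acta2 summed to 3561 and 1121 FPKM in 1,25(OH)2D3 replicates 2 and 1 of colon and to at most 214 elsewhere in colon. Leukocyte markers summed to 34.5 to 90.3 FPKM in colon, with 3 of the 15 under a mean of 0.5 FPKM. In crypts, markers of villus enterocytes ran from 1814 to 16465 FPKM. In such bulk samples, fewer cells of a type and less RNA per cell cannot be told apart.

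The first question was whether 4 h of hormone changed these genes. No member was called in any tissue. Genes with at least 1 FPKM in at least 6 libraries of a tissue were tested with limma on log2(FPKM + 0.5), with Benjamini-Hochberg adjustment over all genes tested and a threshold of 0.05. In villi 0 of 30 tested members passed, against 240 of 9706 genes (2.47%), and 0 members had an unadjusted p under 0.05, against 12.2% of all genes. In crypts 0 of 25 passed, against 157 of 10733 genes (1.46%), again with 0 members under 0.05 unadjusted, against 15.3%. When replicate pairs were blocked, 444 genes passed in crypts and still 0 members. In colon 0 of 29 passed, against 95 of 11540 genes (0.823%), and 2 members, Ddx58 and Ifi35, were under 0.05 unadjusted, against 8.05%. The authors' deposited tables of the same comparisons also called 0 of 33 members in each tissue, against 3.6% of all genes in villi, 4.28% in crypts and 1.64% in colon, with 1 member of villi, 4 of crypts and 3 of colon at an unadjusted p under 0.05, beside 11.9%, 15.8% and 11% of all genes in those tables. In no tissue were all treated libraries on one side of all vehicle libraries for any tested member, which held for 1.92% of all genes tested in villi, 1.75% in crypts and 0.867% in colon. The members below the filter were Ifit2, Mx1 and Gbp2 in villi, Oas2, Ifit2, Mx1, Mx2, Gbp2, Gbp3, Ifi44 and Cxcl10 in crypts, and Ifit2, Mx1, Mx2 and Gbp3 in colon.

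The median log2 fold change over the tested members was -0.06 in villi, where the median of all genes tested was -0.01, -0.26 in crypts (-0.01 over all genes) and 0.08 in colon (0.00 over all genes). Estimates were positive for 11 of 30 members in villi, 2 of 25 in crypts and 17 of 29 in colon. In crypts the median over the 4 villus enterocyte markers was -0.55, with 1 of 4 positive, and that over the 3 crypt markers 0.22, with 2 of 3 positive and 0 of either list called, and their part in the crypt median was not tested. These medians over the members turned on single libraries. The villus median became 0.05, 0.03 and 0.02 without vehicle replicate 1, vehicle replicate 2 and 1,25(OH)2D3 replicate 1, and -0.12 without vehicle replicate 3. The crypt median stayed negative without any 1 library but ran from -0.40 without vehicle replicate 4 to -0.08 without 1,25(OH)2D3 replicate 1, with -0.10 without vehicle replicate 6 and -0.17 without vehicle replicate 5. The colon median ran from -0.14 without 1,25(OH)2D3 replicate 4 to 0.19 without vehicle replicate 3, and was also negative without 1,25(OH)2D3 replicate 3 (-0.13) and without vehicle replicate 2 (-0.14), 6 (-0.06) or 1 (-0.03).

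**Figure D1:**
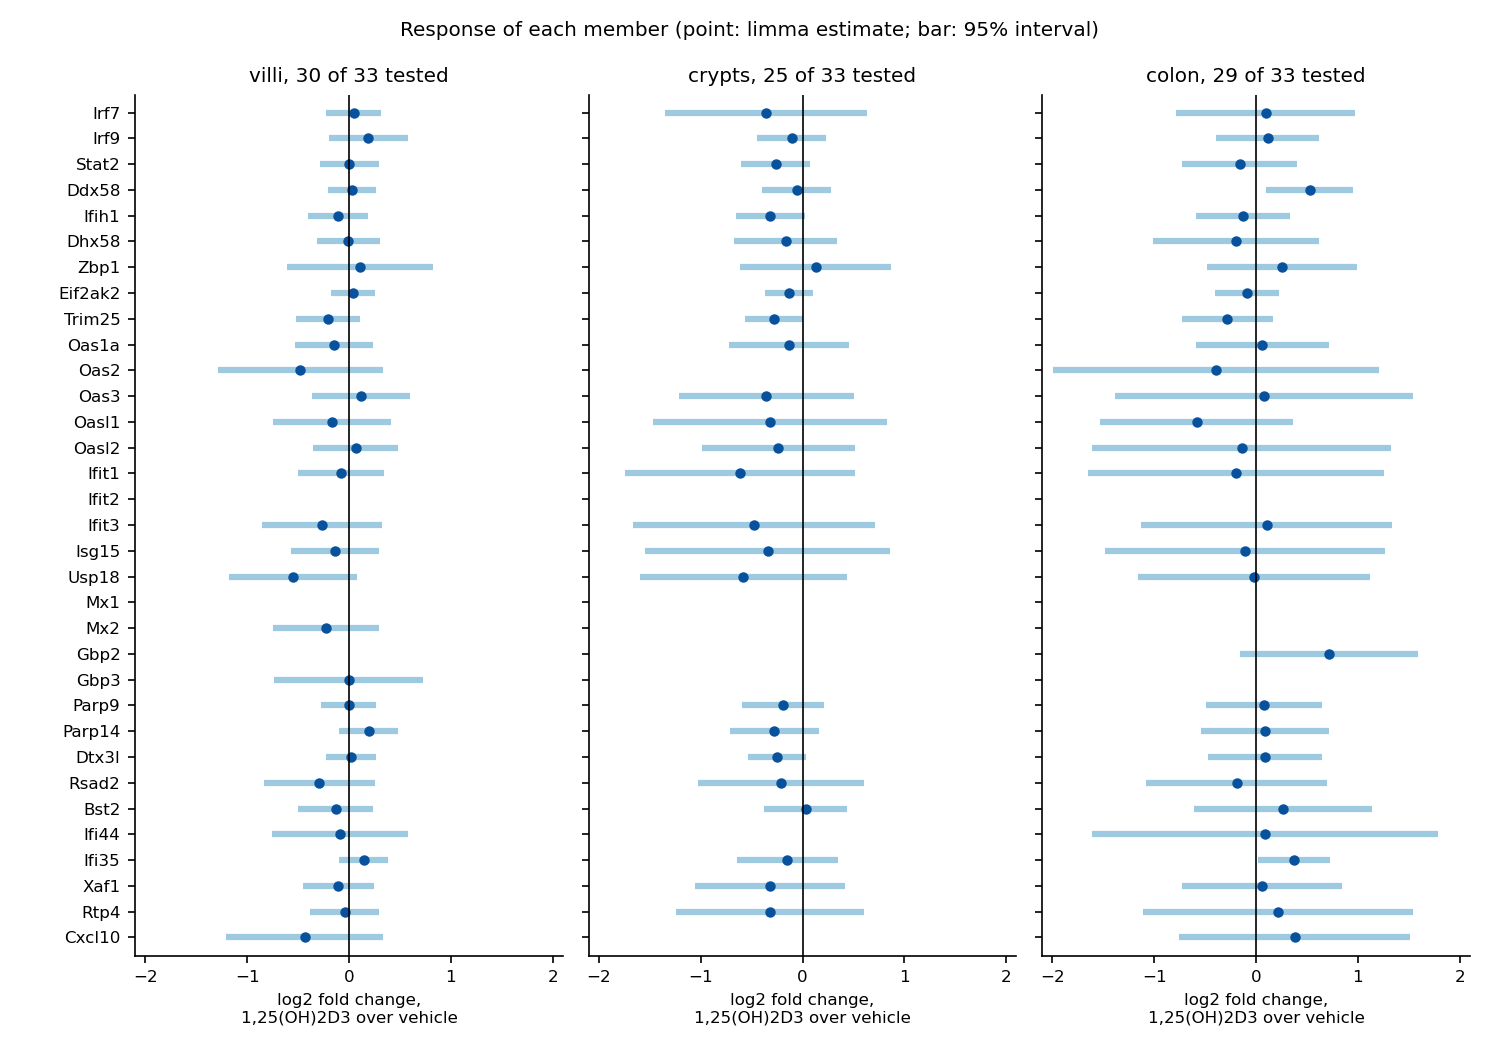
Log2 fold change of each member, 1,25(OH)2D3 over vehicle, in villi, crypts and colon (x axis), with members ordered by role on the y axis; points are limma estimates and bars their 95% intervals, and members below the filter have no point. The intervals are narrow in villi and wide in colon, where those of Oas2 and Ifi44 reach from -1.99 to 1.21 and from -1.61 to 1.79.

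Among the transcription factors, Irf7, the amplifier of interferon production, was at 57.2 to 81.4 FPKM (median 62.7) in vehicle villi and at 57.1 to 92.8 (median 70.7) in treated villi. The groups overlapped over nearly their whole range, and the log2 difference was 0.05 ± 0.13 (SE, adjusted p = 0.927). In crypts Irf7 ran from 7.11 to 57.9 FPKM in vehicle libraries and from 7.62 to 34.1 in treated ones. In colon it ran from 24.5 to 103 and from 27.2 to 143. Irf9 and Stat2, partners in the complex that binds response elements, differed by 0.19 ± 0.18 and 0.00 ± 0.14 in villi, by -0.11 ± 0.16 and -0.26 ± 0.16 in crypts, and by 0.12 ± 0.24 and -0.16 ± 0.26 in colon. None of these 3 genes passed in any tissue.

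The sensors held the member with the smallest p. Ddx58, which encodes the RNA sensor RIG-I, was at 5.41 to 11.7 FPKM (median 7.93) in vehicle colon and at 8.60 to 16.7 (median 10.6) in treated colon. Treated libraries were higher on average, but 5 of the 7 lay inside the vehicle range. The log2 difference was 0.53 (95% interval 0.10 to 0.95), with an adjusted p of 0.429 in limma. Blocked by the replicate numbers of the titles, a fit that drops the unpaired 1,25(OH)2D3 replicate 7, the difference was 0.59 with an adjusted p of 0.0320. With the numbers of the column names as the block it was 0.52 with an adjusted p of 0.113. The colon numbers did not meet the rule for pairs, as given in the account of the processing. In villi Ddx58 differed by 0.03 ± 0.11 and in crypts by -0.06 ± 0.16, and the difference of the colon from the villus response had an adjusted p of 0.579. Ifih1, which encodes the long RNA sensor MDA5, was at 9.13 to 14.2 FPKM in treated crypts and at 10.1 to 21.3 in vehicle crypts, a difference of -0.32 ± 0.16 with an adjusted p of 0.370. Zbp1, a sensor of left-handed nucleic acid, was the most variable sensor in villi, from 29.1 to 105 FPKM in vehicle and from 36.1 to 111 in treated libraries. Eif2ak2, which encodes the kinase PKR, was among the steadiest members, at 10.4 to 18.8 FPKM over all 38 libraries. Trim25, the ubiquitin ligase that assists RIG-I, had the smallest p of any member in crypts, at 16.5 to 31.2 FPKM (median 26.5) in vehicle and 18.8 to 23.0 (median 20.9) in treated libraries. The treated crypts lay inside the vehicle range, and the difference was -0.28 ± 0.13 (adjusted p = 0.345). Its lowest vehicle value, 16.5 FPKM, was that of vehicle replicate 4, without which the difference was -0.40 with an adjusted p of 0.0125. Leaving out that library also took the number of genes called in crypts from 157 to 1059. Its villus enterocyte markers had the lowest sum in crypts, 1814 FPKM, and their part in this change was not tested.

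The OAS family is named for enzymes that make the short adenylate chains that activate RNase L, and none of its 5 genes followed here passed in any tissue. Oas1a was at 21.8 to 39.2 FPKM in vehicle and at 21.0 to 43.9 in treated villi, and its near-identical copy Oas1g makes the split of reads between them uncertain. Oas2 was listed at 0 in 1 treated library each of crypts and colon and reached 11.1 FPKM in colon. Of the IFIT proteins, which bind viral RNA, Ifit1 was at 33.9 to 71.3 FPKM (median 35.8) in vehicle and 30.7 to 48.9 (median 41.8) in treated villi. The difference was -0.08 ± 0.20, and vehicle replicates 1 and 2, at 71.3 and 66.7 FPKM, were the only libraries above 48.9. Ifit3 differed by -0.26 ± 0.28 in villi, -0.48 ± 0.55 in crypts and 0.11 ± 0.57 in colon. The ISG15 system held the smallest p in villi: Usp18, the protease that removes ISG15 and blocks the interferon receptor, was at 8.96 to 34.0 FPKM (median 12.0) in vehicle and 9.13 to 12.0 (median 10.2) in treated libraries. Here too vehicle replicates 1 and 2, at 31.4 and 34.0 FPKM, stood apart, and the difference of -0.55 ± 0.29 had an adjusted p of 0.497. Isg15 differed by -0.13 ± 0.20 in villi.

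Among the GTPases, Mx1 was below the filter in all 3 tissues, at a mean of 0.57 FPKM in villi, 0.21 in crypts and 0.31 in colon. C57BL/6 mice are known to carry a truncated Mx1. Gbp2, a guanylate-binding protein that attacks vacuoles of pathogens, was tested in colon alone, at 5.37 to 21.6 FPKM (median 8.86) in vehicle and 5.98 to 38.7 (median 20.0) in treated libraries. The difference was 0.72 ± 0.41 (adjusted p = 0.756). Its highest value was that of 1,25(OH)2D3 replicate 2, the library with the highest sum of stromal markers, and the part of those cells was not tested. Parp14, an ADP-ribosyltransferase, differed by 0.19 ± 0.13 in villi, -0.28 ± 0.20 in crypts and 0.09 ± 0.29 in colon, and its partners Parp9 and Dtx3l did not pass in any tissue either. Of the other effectors, Ifi35 was at 17.3 to 30.6 FPKM (median 25.8) in vehicle and at 24.3 to 42.5 (median 35.8) in treated colon. In 4 of the 7 treated libraries it was above every vehicle library, and the difference of 0.37 ± 0.16 had an unadjusted p of 0.0387 and an adjusted p of 0.566. Rsad2, which encodes viperin, differed by -0.29 ± 0.25 in villi, -0.21 ± 0.38 in crypts and -0.19 ± 0.41 in colon. Bst2 differed by -0.13 ± 0.17, 0.03 ± 0.19 and 0.26 ± 0.41 in the same order. Cxcl10, a chemokine that draws T cells, was at 0.388 to 3.88 FPKM in vehicle and 0.357 to 5.85 in treated colon, again highest in 1,25(OH)2D3 replicate 2, with a difference of 0.38 ± 0.53.

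No member's response was shown to differ between tissues. In limma fits of the difference of responses over all 38 libraries, 0 of 25 members passed for crypts against villi (0.0316% of all genes tested), 0 of 28 for colon against villi (0.499%) and 0 of 25 for colon against crypts (0.0771%). Without adjustment, 0, 1 and 2 members were under 0.05, beside 6.02%, 8.39% and 4.24% of all genes. In the same order, the median difference over the members was -0.21, 0.07 and 0.24, beside -0.04, -0.004 and 0.01 over all genes. Positive were 4 of 25, 17 of 28 and 22 of 25 members. These medians changed sign in 0, 5 and 0 of 43 alternatives. Of the 43, 38 left out 1 library. Where that library came from the tissue outside the comparison, the median could not move. Members moved together among libraries, as described further on, so their signs are not independent. The absence of calls does not show that the responses were alike. For crypts against villi, the difference was -0.54 ± 0.77 (SE) for Ifit1 and -0.09 ± 0.24 for Ddx58. Within tissues, for treated against vehicle libraries, the median half-width of the members' 95% intervals was 0.38 (log2) in villi, 0.59 in crypts and 0.87 in colon.

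What set the members apart was their spread among libraries of the same group. The median SD within groups, on the log2 scale, was 0.35 over the members in villi, 0.53 in crypts and 0.81 in colon, beside 0.25, 0.24 and 0.27 over all genes tested. The ratio of the highest to the lowest library had a median of 2.32 over members in villi, 3.38 in crypts and 6.46 in colon, beside 1.88, 1.82 and 1.97 over all genes. In colon all 29 tested members had a within-group SD above the median of all genes, as had 24 of 30 in villi and 24 of 25 in crypts. In each tissue the ranges of the groups overlapped, and the mean over the members of log2(FPKM + 0.5) was 4.06 ± 0.29 (SD, n = 6) in vehicle and 3.98 ± 0.23 (n = 7) in treated villi, 3.64 ± 0.59 (n = 6) and 3.39 ± 0.46 (n = 6) in crypts, and 3.51 ± 0.70 (n = 6) and 3.55 ± 0.77 (n = 7) in colon.

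**Figure D2:**
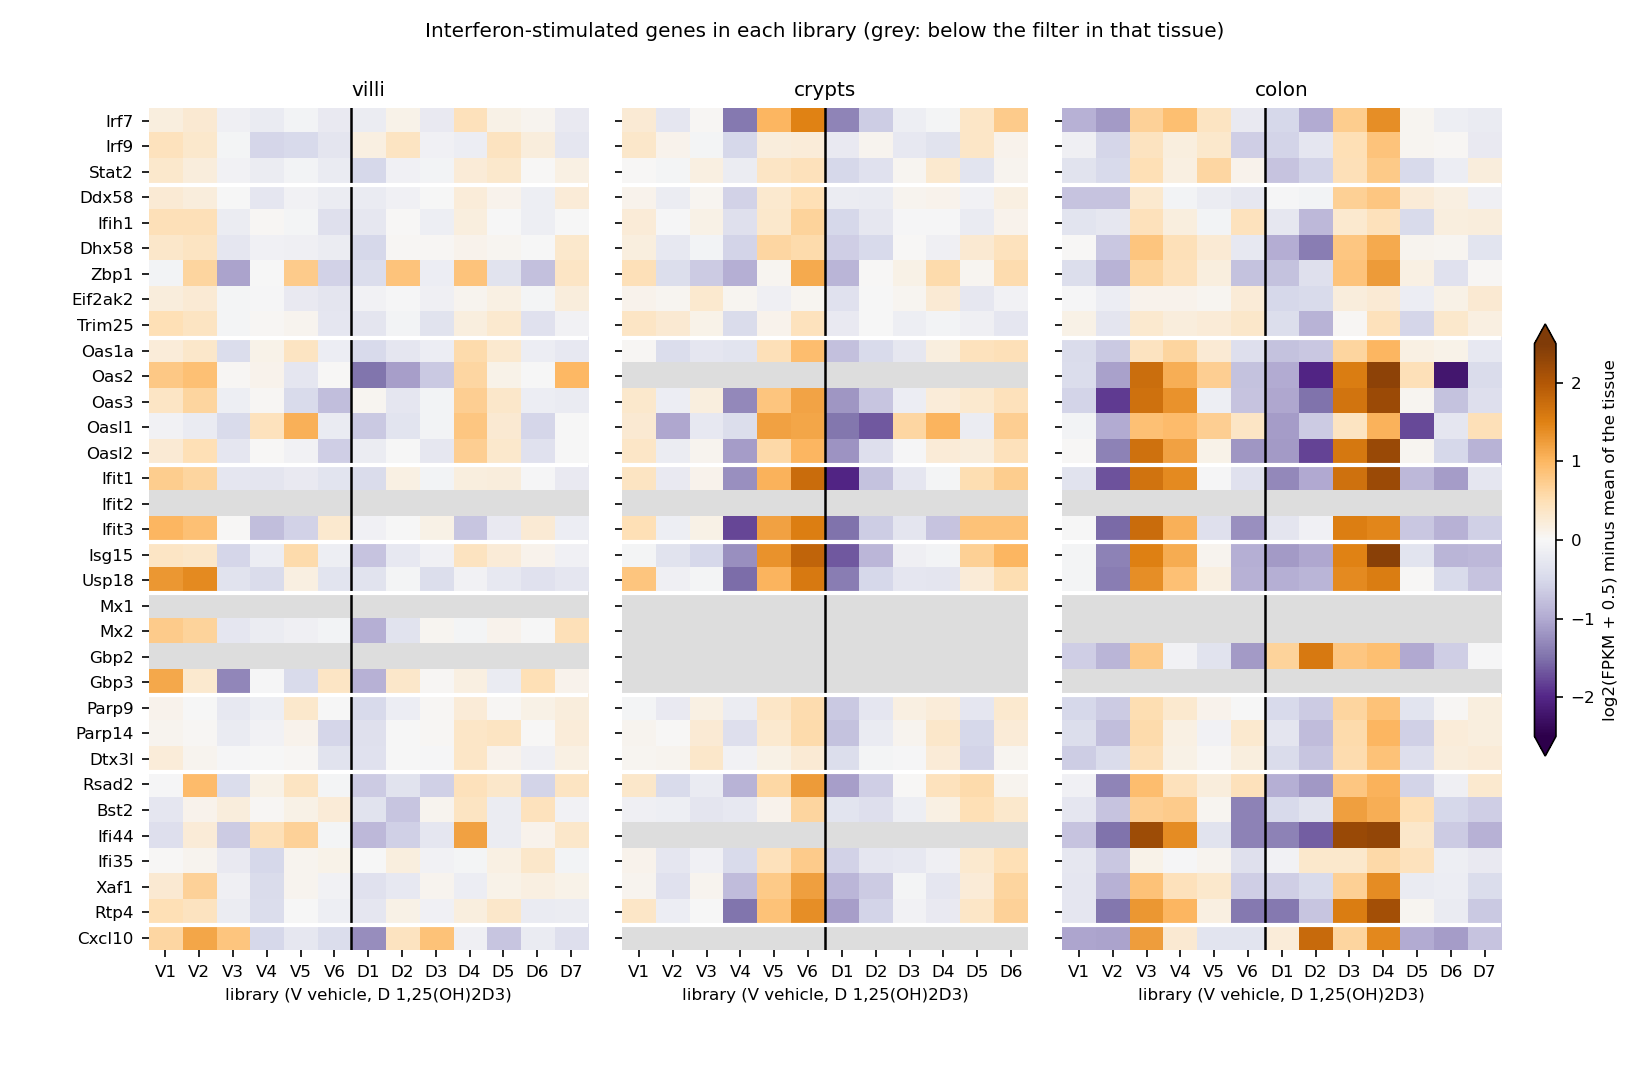
Level of each member (rows, by role) in each library (columns, V for vehicle and D for 1,25(OH)2D3, with the replicate number), drawn as log2(FPKM + 0.5) minus the mean of the tissue; grey marks members below the filter. Most members are high together in the same libraries, among them V3, V4, D3 and D4 of colon and V5 and V6 of crypts.

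Colon showed this most plainly. Isg15 was at 5.81 to 45.9 FPKM (median 15.9) in vehicle colon and 6.89 to 84.6 (median 8.47) in treated colon. The 4 highest libraries came from both groups, with 84.6 FPKM in 1,25(OH)2D3 replicate 4, 45.9 in vehicle replicate 3, nearly as much in 1,25(OH)2D3 replicate 3 and 34.6 in vehicle replicate 4, and the next was 16.6. Ifit1 had the same 4 libraries at the top, with 62.7, 42.7, 43.0 and 35.8 FPKM, and was at most 12.8 in the others. Usp18 was at 9.16, 8.15, 8.32 and 5.63 FPKM there and at most 3.21 elsewhere. For 17 of the 29 tested members (58.6%) these 4 libraries were above all 9 others, an order held by 95 of 11540 genes tested (0.823%). The 17 were Irf7, Dhx58, Zbp1, Oas1a, Oas2, Oas3, Oasl2, Ifit1, Ifit3, Isg15, Usp18, Parp9, Rsad2, Bst2, Ifi44, Xaf1 and Rtp4. The libraries were picked out after their values were seen, so this is a description only. 1,25(OH)2D3 replicate 4 was the highest of the 13 libraries for 24 of the 29 members, and vehicle replicate 2 the lowest for 12. The shares of all genes with these extremes in colon were not worked out, so these counts too are a description only.

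Several library features were set beside this order. Both replicates numbered 3 had the female pattern of Xist and Ddx3y and both numbered 4 the male pattern. In villi the means over members were 3.78 and 3.88 in vehicle replicates 3 and 4 and 3.92 and 4.29 in 1,25(OH)2D3 replicates 3 and 4, the last being the highest treated library, while vehicle replicates 1 and 2 were at 4.37 and 4.46. The sources used here do not say whether a number marks the same mouse in different tissues, and for 4 of the 13 numbers (vehicle 5 and 6 and 1,25(OH)2D3 5 and 6) the Xist and Ddx3y pattern differed between tissues. Leukocyte markers summed to 76.4, 61.6, 90.3 and 76.4 FPKM in vehicle replicates 3 and 4 and 1,25(OH)2D3 replicates 3 and 4 of colon, to 85.5 in vehicle replicate 5, where the member mean was 3.64, and to 34.5 to 50.9 in the other 8. Their part in the order was not tested.

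**Figure D3:**
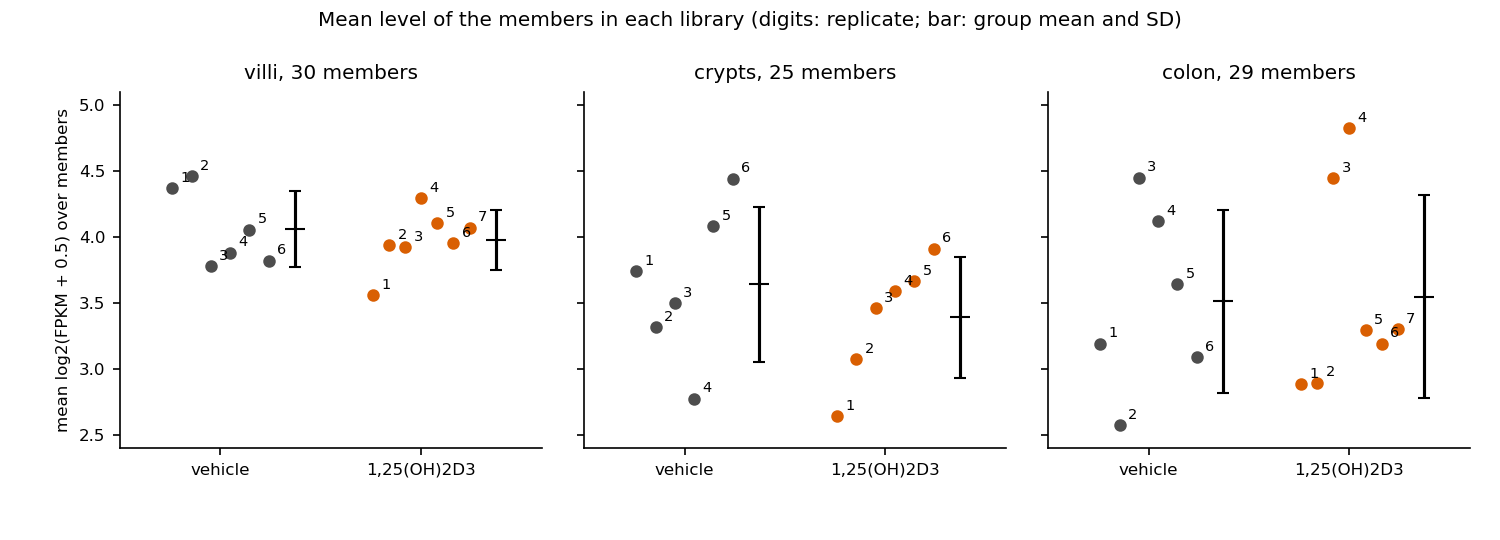
Mean over the tested members of log2(FPKM + 0.5) in each library of villi, crypts and colon (y axis), by treatment (x axis); digits give the replicate and the bars the group mean and SD. The points of the groups overlap in each tissue, and in colon 4 libraries, 2 of each group, lie between 4.12 and 4.82 while the other 9 lie between 2.58 and 3.64.

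In crypts the member mean ran from 2.64 in 1,25(OH)2D3 replicate 1 to 4.44 in vehicle replicate 6. Isg15 was at 5.47 to 50.3 FPKM (median 12.0) in vehicle and 3.95 to 28.0 (median 12.8) in treated crypts, and Ifit1 at 4.31 to 37.9 (median 13.1) and 2.30 to 18.5 (median 9.68). Vehicle replicate 6 was the highest vehicle library for 20 of 25 members, against 29.8% of all genes tested, and vehicle replicate 4 the lowest for 20 of 25, against 27.1%. Among treated crypts, replicate 1 was the lowest for 19 of 25 members, against 21.7% of all genes. Villus enterocyte markers moved with this order. They summed to 16465 FPKM in vehicle replicate 6, 14727 in vehicle replicate 5 and 10520 in 1,25(OH)2D3 replicate 6, the 3 libraries of highest member mean, and to 1814 and 2730 in vehicle replicate 4 and 1,25(OH)2D3 replicate 1, the lowest. Replicates 5 and 6 of both crypt groups, whose sample descriptions are built differently from the others, were also among the higher libraries. Their member means were 4.08 and 4.44 in vehicle and 3.67 and 3.91 in treated crypts, beside 2.64 to 3.74 in the others. They were the 2 highest vehicle libraries for 20 of 25 members, against 24.4% of all genes. Among treated crypts they were the 2 highest for 13 of 25, against 18.6%. The parts of enterocyte content and of description style in the crypt values were not tested. In villi the range was narrower, and vehicle replicates 1 and 2 were the 2 highest vehicle libraries for 18 of 30 members, against 19.6% of all genes.

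The members were compared with each other after the group means were removed. Over pairs of members, the median of Pearson's r was 0.50 in villi, 0.78 in crypts and 0.80 in colon. Over pairs of every 7th gene tested it was -0.0013, 7.0e-05 and 0.00097. Pearson's r of a member with the mean of the other tested members had a median of 0.74 over 13 villus libraries, 0.92 over 12 crypt libraries and 0.91 over 13 colon libraries, values given as a description since the libraries of a tissue share their tissue, depth and cell content. In colon r was 0.98 for Isg15, Ifit1, Oas3 and Xaf1. The least alike in colon were Gbp2 (0.42), Cxcl10 (0.52), Eif2ak2 (0.59) and Trim25 (0.60). In crypts Eif2ak2 stood apart at 0.08 while Irf7 was at 0.99, and in villi Bst2 was at 0.04 and Stat2 at 0.90. Of the 9311 genes tested in all tissues, the non-members most like the mean of the 25 members tested throughout, over 38 libraries, were Apol9a (r = 0.96), Herc6 (0.94), Sp100 (0.92), Cmpk2 (0.90), Ogfr (0.88), Ube2l6 (0.87), Oas1g (0.86) and Trim30d (0.86). All but Ogfr and Trim30d were in the list of other interferon-induced genes. Apol9a has a near-identical copy, Apol9b, so its level is uncertain.

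Across tissues most members were highest in villi. By mean FPKM, in tables normalised separately by tissue, the order was villi, colon, crypts for 18 members, villi, crypts, colon for 7, colon, villi, crypts for 7, and colon, crypts, villi for 1, Bst2. Colon was thus above villi for 8 members, but on the scale of the authors' deposited fold changes, which differs from the FPKM folds of villi and colon by 0.70 (log2), 4 of the 8 (Eif2ak2, Trim25, Rsad2 and Ifi44) were lower in colon by their estimates. The ranges overlapped for most members. All 13 villus libraries were above all 12 crypt libraries for 6 of 33 (Stat2, Ddx58, Oas3, Oasl1, Oasl2 and Parp14). They were above all 13 colon libraries for 2 (Ddx58 and Ifi35), and colon was above villi throughout for Gbp2. How many of all genes had these orders or separations between tissues was not worked out, so the counts are a description only. The authors' deposited tables, which compare treated libraries between tissues, called 30 of 33 members lower in crypts than in villi and 0 higher, where 61.9% of all genes were called, 30.4% lower and 31.6% higher, with a median log2 fold change of -1.74 over the members and -0.02 over all genes. In the authors' deposited table of colon against villi, 24 members were lower in colon and 1, Gbp2, was higher, with a median of -1.24 beside 0.29 over all genes, of which 64.7% were called, 27.0% lower and 37.8% higher. For colon against crypts, the authors' deposited table called 10 members higher and 1, Ifi35, lower, with a median of 0.61 beside 0.18 over all genes, of which 56.5% were called, 32.6% higher and 23.9% lower.

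Ifi35 was the most abundant member in villi and crypts, at 128 ± 17.7 FPKM (SD, n = 13) in villi and 79.5 ± 24.6 (n = 12) in crypts, beside 29.3 ± 7.28 (n = 13) in colon. The authors' deposited log2 fold change from villi to colon was -2.72 for it. Irf7 was the most abundant in colon, at 62.9 ± 35.2 FPKM, beside 67.8 ± 11.2 in villi and 23.7 ± 14.6 in crypts. The FPKM of villi and colon lay within the spread, whereas the authors' deposited log2 fold change from villi to colon was -0.78 (adjusted p = 0.0164). Ddx58 was at 23.1 ± 3.07, 12.5 ± 2.48 and 9.86 ± 3.36 FPKM in villi, crypts and colon. Isg15 had means of 50.3, 17.6 and 23.0 FPKM in the same order and ran from 29.2 to 71.8 in villi, 3.95 to 50.3 in crypts and 5.81 to 84.6 in colon, so that crypts and colon did not differ beyond their spread. Eif2ak2 was at 14.9 ± 1.80, 13.6 ± 1.84 and 15.7 ± 2.76 FPKM, nearly level on this scale, but the authors' deposited log2 fold changes from villi were -0.71 to crypts and -0.67 to colon. Gbp2 went the other way, at 0.88 ± 0.34, 0.48 ± 0.15 and 14.9 ± 9.79 FPKM, and the authors' deposited log2 fold change from villi to colon was 3.53. Bst2 was at 10.4 ± 2.27, 12.6 ± 3.29 and 16.7 ± 9.40 FPKM, and the authors' deposited tables called no difference for it between any 2 tissues.

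**Figure D4:**
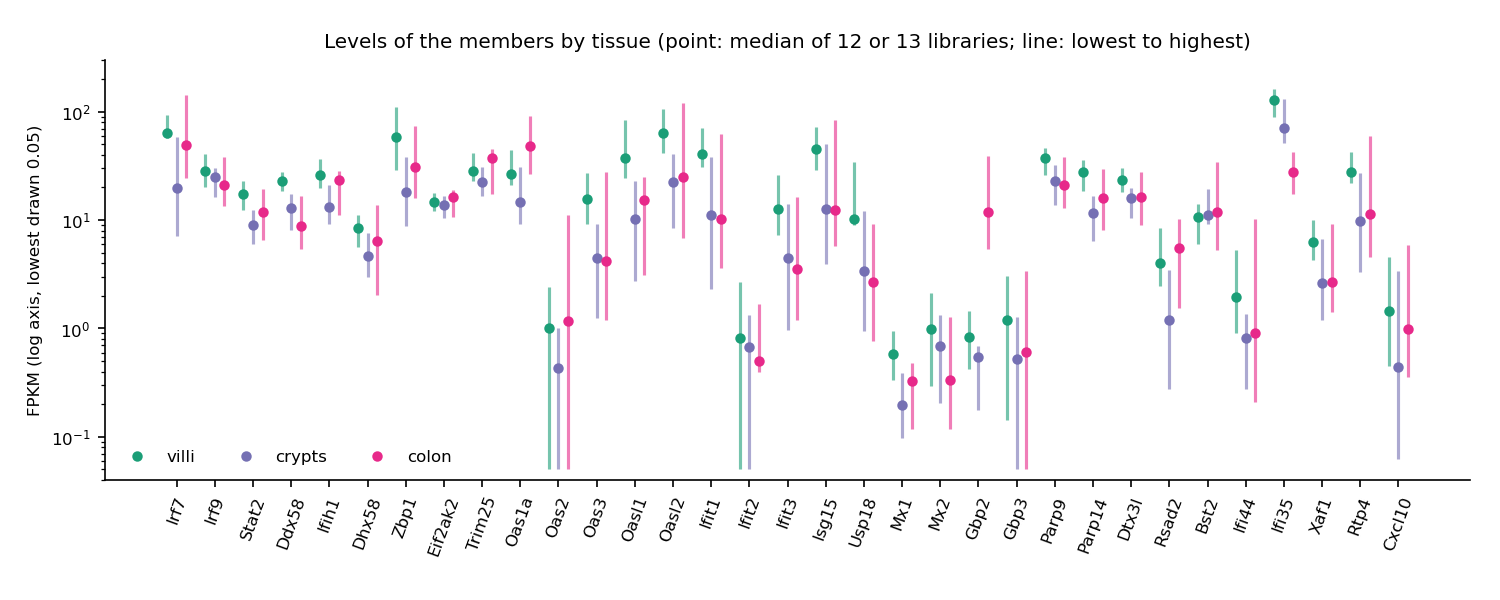
FPKM of each member (x axis, by role) in villi, crypts and colon on a log axis; points are medians over 13, 12 and 13 libraries, lines run from the lowest to the highest library, and values under 0.05 are drawn at 0.05. The tables were normalised separately by tissue. Most members are highest in villi, and Gbp2 is the clear exception, with every colon library above 5 FPKM and every small intestinal library below 2.

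A few other genes of the pathway passed the test. Of 87 further genes of the interferon pathway, 81 were found in the tables, 3 of them under an older symbol. Among them 58 were tested in villi, of which 2 rose and 1 fell (2.47% of all genes were called), 57 in crypts, of which 1 rose and 2 fell (1.46% of all genes), and 63 in colon, of which 0 passed (0.823% of all genes). At an unadjusted p under 0.05 were 6 in villi, 10 in crypts and 1 in colon, beside 12.2%, 15.3% and 8.05% of all genes. By this count the list as a whole did not stand above the background in villi or colon and was near it in crypts. By adjusted calls its share was above that of all genes in villi and crypts, though on few genes, and was 0 in colon. The interferons themselves were barely seen. None of the 10 ligands passed the filter in any tissue, no library exceeded 0.240 FPKM for any of them, and Ifnb1, Ifna1, Ifna2, Ifna4 and Ifna5 were listed at 0 in all 38 libraries.

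Ifngr1, the ligand-binding chain of the interferon gamma receptor, fell in both parts of the small intestine. In villi it was at 56.1 to 78.5 FPKM (median 68.5) in vehicle and at 36.6 to 49.0 (median 45.1) in treated libraries, with no overlap, and fell by 0.64 ± 0.09 on the log2 scale (SE, adjusted p = 0.0011). In crypts it was at 65.3 to 91.6 FPKM (median 81.3) and at 45.3 to 54.0 (median 52.4), again with no overlap, and fell by 0.62 ± 0.09 (adjusted p = 0.00254). In colon the groups overlapped, at 140 to 244 FPKM in vehicle and 96.2 to 192 in treated libraries, and the log2 difference of -0.45 ± 0.17 did not pass (adjusted p = 0.45). The colon response was not shown to differ from that in villi (difference 0.19, adjusted p = 0.773). Of the 9 receptor and kinase genes, the other 8 did not pass in any tissue. Ifngr2, the signalling chain of the same receptor, differed by -0.01 ± 0.13 in villi, and Ifnar1, a chain of the type I receptor, by -0.14 ± 0.17. Il28ra, the older symbol of the type III receptor chain Ifnlr1, was at 6.30 ± 2.60 FPKM (SD) in vehicle and 3.78 ± 1.10 in treated crypts, a difference of -0.61 ± 0.25 with an adjusted p of 0.269.

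Irf2, a factor that competes with IRF1 at response elements, fell in crypts. It was at 38.4 to 56.5 FPKM (median 46.0) in vehicle and 26.9 to 33.7 (median 30.2) in treated crypts, with no overlap, and fell by 0.59 ± 0.10 on the log2 scale (adjusted p = 0.00794). In villi it differed by -0.33 ± 0.16 (adjusted p = 0.452) and in colon by -0.24 ± 0.13 (adjusted p = 0.747). The other 5 STAT and IRF genes of the list did not pass in any tissue. Of the 7 restraint genes, Ptpn2, a phosphatase that acts on JAK kinases, rose in crypts, from 23.3 to 30.1 FPKM (median 26.9) in vehicle to 33.8 to 43.4 (median 39.8) in treated libraries, by 0.55 ± 0.09 (adjusted p = 0.00568). It differed by 0.24 ± 0.09 in villi (adjusted p = 0.244) and 0.22 ± 0.12 in colon (adjusted p = 0.755). Socs1 and Socs3, feedback inhibitors of JAK signalling, did not pass in any tissue. The Ifngr1 and Irf2 calls were lost, among the alternatives run, only with the 4 libraries of each group whose sample description is in the plain style. The adjusted p in limma was then 0.0679 for Ifngr1 in villi, 0.0546 for Ifngr1 in crypts and 0.0502 for Irf2 in crypts.

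A pair of genes rose in villi. Mavs, the mitochondrial adaptor through which RIG-I and MDA5 signal, was at 17.1 to 38.3 FPKM (median 24.8) in vehicle and 33.0 to 47.0 (median 36.2) in treated villi, where it rose by 0.63 ± 0.16 (adjusted p = 0.0483). Vehicle replicate 3, at 38.3 FPKM, lay inside the treated range. Blocked by replicate pair, the adjusted p was 0.0982. The call held in 5 of 24 alternatives, with adjusted p from 0.00541 to 0.429. Ifi27l2b, a small interferon-inducible membrane protein gene, was at 683 to 1050 FPKM in vehicle and 1119 to 1581 in treated villi, with no overlap, and rose by 0.51 ± 0.12 (adjusted p = 0.0351). Its call held in 13 of 24 alternatives, with adjusted p from 0.00112 to 0.187. The other 28 tested genes of the list of further interferon-induced genes did not pass in villi, and none of the 27 tested in crypts or 32 in colon passed.

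**Figure D5:**
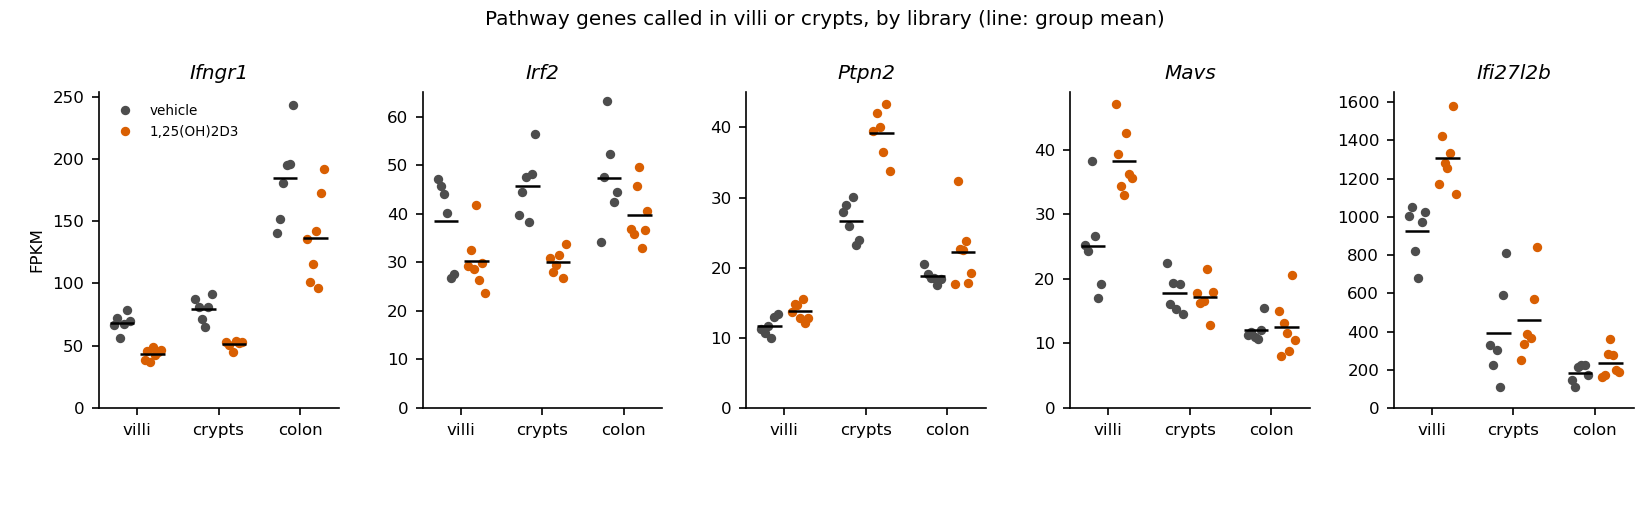
FPKM of 5 pathway genes in each library of villi, crypts and colon (y axis from 0, different for each gene); grey points are vehicle, orange points 1,25(OH)2D3 and lines group means. Ifngr1 in villi and crypts, Irf2 and Ptpn2 in crypts and Ifi27l2b in villi are separated without overlap, whereas Mavs overlaps in villi and the genes overlap in colon.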

How the data were processed

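Expression was measured in 38 RNA-seq libraries. Levels of 21441 genes came as deposited FPKM, in 1 table per tissue, per the file headers. Tables of the authors' own comparisons held, per the file headers, log2 fold changes, p-values and adjusted p-values. They also held, as deposited, a test statistic (a score) and a mean normalised level (a signal). Tools named by the submitters' processing notes were kallisto 0.45.0, DESeq 1.28.1 and DESeq2, with the mm9 build; the sources used here do not say which made which column. FPKM are scaled by length and library, so no count model was run. The mean FPKM of a tissue and the authors' mean level gave the worth of 1 read, from which depth was recovered (78.0% to 91.6% of low values whole); depth was used only for description and for a comparison of library pairs, where all 102 pairs within groups differed by more than sampling noise (a chi-square per degree of freedom of at least 13.2). FPKM tables were normalised separately: fold changes of mean FPKM between tissues were offset from the authors' deposited log2 values by 0.49 for villi and crypts, 0.70 for villi and colon and 0.08 for crypts and colon, and the signs matched the second-named tissue over the first.

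Groups came from the sample titles. Within each tissue, log2(FPKM + 0.5) was tested with limma 3.58.1 (lmFit, eBayes with trend) in R 4.3.3 without covariates, after a filter of 1 FPKM in 6 libraries, with Benjamini-Hochberg adjustment over all genes tested and a threshold of 0.05; the script was tested on simulated data. Differences of response were tested over all libraries. Promoter sequences were taken from RefSeq, GRCm38.p6, and limited to the 250 bases before the start, a narrower window than first planned. The members, lists and tests were chosen with earlier results of these data known. Values are printed for members named by role, for those of smallest p, highest or lowest level and largest spread, for called pathway genes and some of those of smallest p, and for the 8 most alike non-members.

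Same-numbered vehicle and treated libraries were checked as pairs by the correlation of their deviations from the group means. All 6 pairs were over 0.1 in villi (lowest 0.102) and in crypts (lowest 0.119), so title numbers met the rule for pairs there. In colon 3 of 6 pairs were, so they did not. The main fits had no replicate block in any tissue, and blocks were used only as alternatives. The same-numbered library was the best match in 4 of 6 pairs in villi, 3 of 6 in crypts and 3 of 6 in colon. Vehicle replicate 6 of villi had the male pattern of Xist and Ddx3y, and treated replicate 6 the female pattern. Alternatives were other pseudocounts, filters, scalings and blocks, the authors' deposited test and each library left out. A further one kept only the libraries whose sample description is in the plain style (4 per group). The others carry a differently built description.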

Additional observations from a re-analysis of the deposited data

Results flagged for a closer look

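A gap test within each group of 6 or 7 libraries was run on 174 combinations of group and member or member mean. It picked out 2 single low values, where chance alone gives about 1 in 20. That is a larger share than was found, so the 2 values are given as a description only. Dhx58, which encodes the RNA helicase LGP2, was at 5.61 FPKM in 1,25(OH)2D3 replicate 1 of villi, beside 8.22 to 10.6 in the other 6 treated villus libraries. Trim25 was at 26.7 FPKM in vehicle replicate 2 of colon, beside 36.2 to 42.2 in the other 5. These were also the libraries of lowest member mean in their tissues, 3.56 in villi and 2.58 in colon, means to which the flagged genes themselves contribute.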

How the results depend on the processing

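The count of members called was 0 in villi under all 24 alternatives and 0 in crypts and colon under all but 1 of 23 and 24. In crypts it was 0 to 1 when 1 library was left out, with the 1 call (Trim25) appearing without vehicle replicate 4. In colon it was 1 (Ddx58) with the replicate block by title numbers and 0 with that by column-name numbers. The differences of response kept 0 called members under all 43 alternatives. Those alternatives that left out a library of the third tissue could not move the estimated differences. The replicate block changed no other call of a member. It did move the counts over all genes: from 157 to 444 in crypts, from 240 to 341 in villi and, in colon, from 95 to 147 by title numbers or 81 by column-name numbers, neither of which met the rule for pairs, and for the differences of response from 3 to 10 (crypts and villi), 47 to 154 (colon and villi) and 8 to 24 (colon and crypts). Over all alternatives these 3 counts ran from 1 to 10, 27 to 154 and 3 to 24. Counts over all genes were also 99 in villi and 86 in crypts for the libraries of plain description alone. They were 391 in crypts with description style as a covariate and 1059 in crypts without vehicle replicate 4. In the authors' deposited tables they were 436, 550 and 246 in villi, crypts and colon. Libraries left out singly gave median changes of the members from -0.12 to 0.05 in villi, -0.40 to -0.08 in crypts and -0.14 to 0.19 in colon. Some members below the filter rest on few reads, such as a median of 7 for Cxcl10 in crypts.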
